A study of Gossypium hirsutum with 2 samples.

Results

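Expansin-like B1 transcripts were examined in RNA sequencing tables from upland cotton (Gossypium hirsutum). The FL library came from ovules of XZ142FLM, a line with the genotype li3li3n2n2 whose seeds carry neither fuzz nor lint and whose fibers hardly develop. The WT library came from fiber of the wild-type cultivar Xuzhou142, in which fibers form normally. Both were taken at 10 days post anthesis, with 1 library per group. The members were 3 unigenes (assembled transcript sequences) of 136262 in the deposited tables: Unigene0048776, Unigene0048061 and Unigene0048060. They were listed by identifier, and each carries the annotation text of EXLB1 with a best hit in Theobroma cacao (cacao). They were singled out because of how their levels differed between these libraries, so the differences below are descriptions and no test is attached to them.

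Expansins are secreted proteins that loosen the contacts between cellulose microfibrils and matrix polysaccharides without cutting either, which lets the wall of a turgid cell extend. The superfamily holds alpha expansins, beta expansins and the expansin-like A and expansin-like B groups. The expansin-like groups share the family's domains by sequence, and much less is known of their activity on walls than for alpha and beta expansins. A cotton fiber is a single seed coat cell that elongates greatly, and alpha expansins are well known from growing fibers. An ovule holds the seed coat, the embryo and the endosperm.

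The FL library had 53.4 M unique reads on 133483 unigenes and the WT library had 45.6 M unique reads on 127466 unigenes. Tissue and genotype differed together, so their parts in any difference cannot be told apart. Fewer cells of a type and less RNA per cell also cannot be told apart in such bulk samples. Levels are RPKM, in which the authors divided reads by unigene length and by each library's total. Intervals are 95% and come from the read counts alone, so they cover counting error and not variation between plants. Unigene0048776 is 1073 bases long, Unigene0048061 is 405 bases long and Unigene0048060 is 641 bases long. Their sequences, genome positions and exon structure were not analysed here, so it was not tested whether they come from 1 gene, from homoeologous copies or from fragments of a transcript. Reads that could fall on more than 1 of them make the single values uncertain.

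All 3 Expansin-like B1 unigenes had higher levels in FL ovules than in WT fibers. Unigene0048776, the most abundant of them, had 22949 reads in FL ovules and 234 reads in WT fibers. That corresponded to 400.7 RPKM in FL ovules (395.5 to 405.9) and 4.78 RPKM in WT fibers (4.19 to 5.43), an 83.8-fold difference (73.7 to 95.7). Its level was therefore high in FL ovules and far lower, though well above the counting floor, in WT fibers, and the counting intervals were far apart. The floor, a count of 3 reads, equals 0.0524 RPKM in FL ovules and 0.0613 RPKM in WT fibers for this unigene.

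Unigene0048060 had 337 reads in FL ovules and 9 reads in WT fibers. Its level was 9.85 RPKM in FL ovules (8.83 to 11.0) and 0.308 RPKM in WT fibers (0.141 to 0.584), a 32.0-fold difference (16.7 to 70.6). Unigene0048061 had 205 reads in FL ovules and 3 reads in WT fibers. Its level was 9.48 RPKM in FL ovules (8.23 to 10.9) and 0.162 RPKM in WT fibers (0.0335 to 0.475), a 58.4-fold ratio whose counting interval ran from 19.7 to 285. Neither of these unigenes overlapped between the libraries by its counting interval, and in WT fibers Unigene0048061 was at the floor of 3 reads. The share of all measured unigenes without such overlap is not given here. Since the members were chosen on this contrast, nothing is read from the lack of overlap for any of them.

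**Figure D1:**
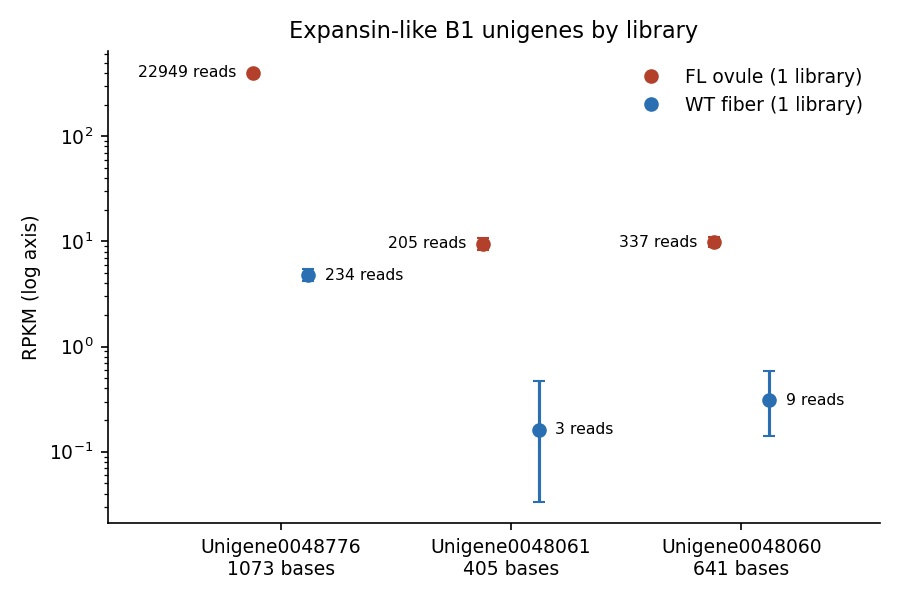
RPKM on a log axis of the 3 Expansin-like B1 unigenes in FL ovules (red) and WT fibers (blue), 1 library each; bars are exact Poisson 95% counting intervals and labels give unique reads. Each unigene lies higher in FL ovules, and the blue intervals widen with 9 and 3 reads.

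On the scale of log2((RPKM + 1) in FL ovules over (RPKM + 1) in WT fibers), which understates the change of low unigenes, the values were 6.12 for Unigene0048776, 3.17 for Unigene0048061 and 3.05 for Unigene0048060. All 3 passed the filter of 1 RPKM in at least 1 library, and they did so through FL ovules; in WT fibers only Unigene0048776 reached 1 RPKM. All 3 exceeded 2-fold towards FL ovules, against 15.3% of the 63258 unigenes that passed the filter, and all 3 exceeded 4-fold, against 2.19%. Since the members were chosen on this contrast, nothing is read from these counts. The median log2 ratio of those unigenes was 0.39, and relative to it the members stood at 5.73, 2.78 and 2.66. By log2 ratio towards FL ovules, Unigene0048776 was the 5th of the 63258, Unigene0048061 the 254th and Unigene0048060 the 307th.

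**Figure D2:**
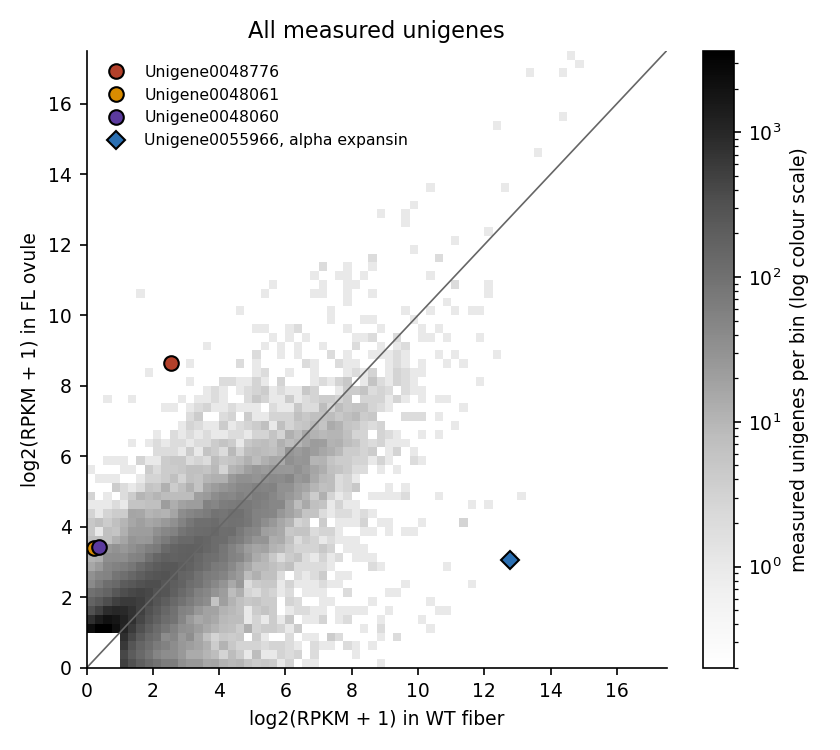
log2(RPKM + 1) in FL ovules (vertical) and WT fibers (horizontal) for all 63258 measured unigenes, shaded by the number per bin, with a line of equal levels. The 3 Expansin-like B1 unigenes (circles) lie above the line and the alpha expansin Unigene0055966 (diamond) lies far below it.

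The members differed from each other in abundance far more than in direction. Unigene0048776 had the 112th highest RPKM of the 133483 unigenes detected in FL ovules, and 15804th of 127466 in WT fibers. Unigene0048060 was 9419th in FL ovules and 83777th in WT fibers. Unigene0048061 was 9751st in FL ovules and 105133rd in WT fibers. Of the summed RPKM of the members, which was 420.0 in FL ovules and 5.25 in WT fibers, Unigene0048776 held 95.4% in FL ovules and 91.0% in WT fibers. The sum is therefore nearly that of this unigene alone, and it was 80.0-fold higher in FL ovules.

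Ratios between members within a library do not depend on the read total, so they are free of library scaling. Unigene0048776 exceeded Unigene0048060 by 40.7-fold in FL ovules (36.5 to 45.4) and by 15.5-fold in WT fibers (8.04 to 34.4). The fold difference between libraries was thus 2.62 times as large for Unigene0048776 as for Unigene0048060, with a counting interval of 1.17 to 5.12 that rests on 9 reads. Against Unigene0048061 it was 1.44 times as large, with an interval of 0.291 to 4.31 that includes equal folds. Unigene0048061 and Unigene0048060 had a level ratio of 0.963 in FL ovules (0.805 to 1.15) and 0.528 in WT fibers (0.0919 to 2.11). The levels of this pair were thus not distinguishable within either library at this depth, which does not show that they are equal. Their summed length of 1046 bases is close to the 1073 bases of Unigene0048776, a description only.

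The authors also deposited a coverage score with a percent sign. Its definition is not given in the sources used here, and it exceeds 100 for 14 unigenes of FL ovules and 9 of WT fibers, so it cannot be read as a plain share of bases with reads. It was 99.91 for Unigene0048776 in FL ovules and 86.3 in WT fibers. It was 95.16 in FL ovules and 54.76 in WT fibers for Unigene0048060, and 99.51 in FL ovules and 28.15 in WT fibers for Unigene0048061. The lowest of these scores, that of Unigene0048061 in WT fibers, rests on 3 reads. In annotation the members also differed. Unigene0048060 and Unigene0048061 carried the gene ontology process term reproduction, Unigene0048776 carried no ontology term, and none of the 3 had a pathway entry.

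The annotation text Expansin-like B1 also occurred on 4 longer unigenes outside the members, and each of these was below 1 RPKM in both libraries. Unigene0112780, of 2226 bases, had 53 reads in FL ovules and 35 reads in WT fibers, or 0.446 RPKM against 0.345 RPKM, a ratio of 1.29 (0.829 to 2.04). Unigene0112774 and Unigene0112778 each had 11 reads in FL ovules and 5 reads in WT fibers, a ratio of 1.88 (0.602 to 6.90). Unigene0144260 had 8 reads in FL ovules and 2 reads in WT fibers, a ratio of 3.42 (0.682 to 33.0). Each of these intervals includes equal levels, and the deposited coverage scores of the 4 lay between 12.2 and 20.62 in FL ovules and between 5.3 and 18.91 in WT fibers. Together they had 0.681 RPKM in FL ovules and 0.456 RPKM in WT fibers, small beside the members' 420.0 and 5.25 RPKM.

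The 12 unigenes with the text Expansin-like protein isoform 1, whose subfamily the text does not give, were all lower than each member in FL ovules. They ranged from 0.0714 to 4.85 RPKM in FL ovules and up to 0.964 RPKM in WT fibers. Only 5 reached 1 RPKM. By the log2 ratio of RPKM + 1, 2 of those 5 were at least 2-fold higher in FL ovules. Of all measured unigenes, 15.3% were. Unigene0068670 had 4.85 RPKM in FL ovules and 0.964 RPKM in WT fibers, and Unigene0068677 had 3.95 RPKM in FL ovules and 0.897 RPKM in WT fibers. Their ratios of 5.03 (3.33 to 7.87) and 4.40 (3.11 to 6.38) lay below the lower bounds of all 3 members. By RPKM without the added 1, the other 3 measured unigenes exceeded 2-fold as well. Their ratios were 3.13 (1.63 to 6.52) for Unigene0068673, 2.68 (1.99 to 3.67) for Unigene0068678 and 2.42 (1.63 to 3.66) for Unigene0068679.

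Among the 78 unigenes with any expansin text, Unigene0048776 had the highest RPKM in FL ovules. The next was Unigene0050263, an Expansin A4 (an alpha expansin), with 51.1 RPKM in FL ovules and 10.2 RPKM in WT fibers, so the level of Unigene0048776 stood apart from it beyond counting error. The members held 44.7% of the family's summed RPKM in FL ovules and 0.0713% in WT fibers. In WT fibers Unigene0048776 was 21st of the 78. Its neighbours there were the alpha-expansin precursor Unigene0057535 with 5.08 RPKM (4.06 to 6.28) and the expansin Unigene0056435 with 4.59 RPKM (3.35 to 6.14), and neither differed from it beyond counting error. Unigene0048060 and Unigene0048061 were 18th and 19th in FL ovules. Next above them was Unigene0064496, an Expansin A8, with 10.1 RPKM in FL ovules and 0.732 RPKM in WT fibers, and in FL ovules their intervals overlapped with it. In WT fibers they were 56th and 60th.

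**Figure D3:**
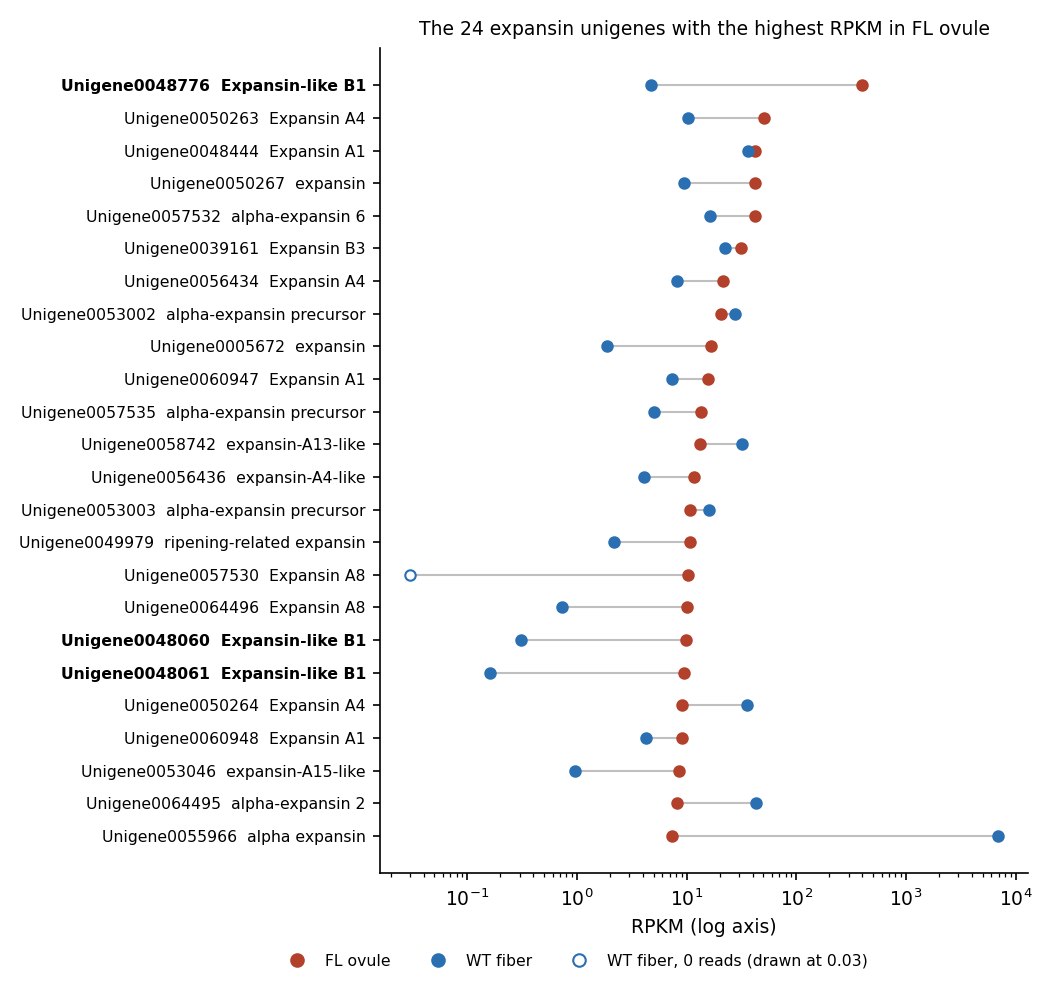
RPKM on a log axis of the 24 expansin unigenes with the highest RPKM in FL ovules, ordered by it, with FL ovules in red and WT fibers in blue (open circle, no reads). Unigene0048776 stands alone at 400.7 RPKM at the top, and Unigene0055966 at the bottom has the reverse arrangement.

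The opposite extreme of the family was the alpha expansin Unigene0055966, with 7.32 RPKM in FL ovules and 6967 RPKM in WT fibers. It held 0.779% of the family's summed RPKM in FL ovules and 94.6% in WT fibers. The most abundant single expansin unigene thus differed between the libraries, Unigene0048776 in FL ovules and this alpha expansin in WT fibers. In FL ovules the expansin texts outside the expansin-like and beta classes together had 462.0 RPKM, more than the 420.0 RPKM of the members. The family sum was 940.3 RPKM in FL ovules and 7364 RPKM in WT fibers. Without Unigene0055966 it was 932.9 RPKM in FL ovules and 397.3 RPKM in WT fibers. When the members were left out as well it was 512.9 RPKM in FL ovules and 392.0 RPKM in WT fibers. With both libraries set to the same RPKM sum the direction of this last pair turned, to 383.9 in FL ovules and 452.8 in WT fibers, while the sum with the members stayed higher in FL ovules, at 698.2 against 458.8 in WT fibers.

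By count of unigenes, the rest of the family also leaned towards FL ovules. Counts of unigenes are not counts of genes. Several of those towards FL ovules have adjoining identifiers, such as Unigene0057532 and Unigene0057533. Whether such unigenes come from the same gene was not tested. Of the 54 other expansin unigenes that passed the filter, 26 passed 2-fold towards FL ovules and 9 towards WT fibers, beside 15.3% and 10.5% of all measured unigenes. Their median log2 ratio was 0.97, against 0.39 for all measured unigenes. With both libraries set to the same RPKM sum the counts were 18 and 11 of 51. That rescaling gave 3960 unigenes past 2-fold towards FL ovules and 11478 towards WT fibers of 54584, and read totals without the 30 most-read unigenes gave 25181 and 5770 of 89573. At 4-fold the whole family, members included, had 15 towards FL ovules and 3 towards WT fibers, beside 2.19% and 2.8% of all measured unigenes. On the scale with the pseudocount none of the 54 had a ratio as large as that of Unigene0048776, and 1 had a larger one than the other members. This was Unigene0057530, an Expansin A8 of 209 bases with 114 reads in FL ovules and none in WT fibers, which puts it at least 32.5-fold higher in FL ovules against the floor of 3 reads in WT fibers. The 95% interval of its ratio, which also takes in the counting error of the 114 reads, starts lower, at 26.0. Without the pseudocount, low unigenes reached large ratios too: Unigene0057536, an expansin with 194 reads in FL ovules and 1 read in WT fibers, had a ratio of 166 (29.4 to 6581). Of the 3 beta expansins that passed the filter, Unigene0039161 had 31.4 RPKM in FL ovules and 22.4 RPKM in WT fibers, and Unigene0039160 had 7.14 RPKM in FL ovules and 8.48 RPKM in WT fibers. The third, the Expansin B1 Unigene0029244, had 20 reads or 1.12 RPKM in FL ovules, near the filter, and no read in WT fibers. Its log2 ratio was 1.09, past 2-fold towards FL ovules, and the interval of its ratio started at 4.22. No text named an expansin-like A protein.

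**Figure D4:**
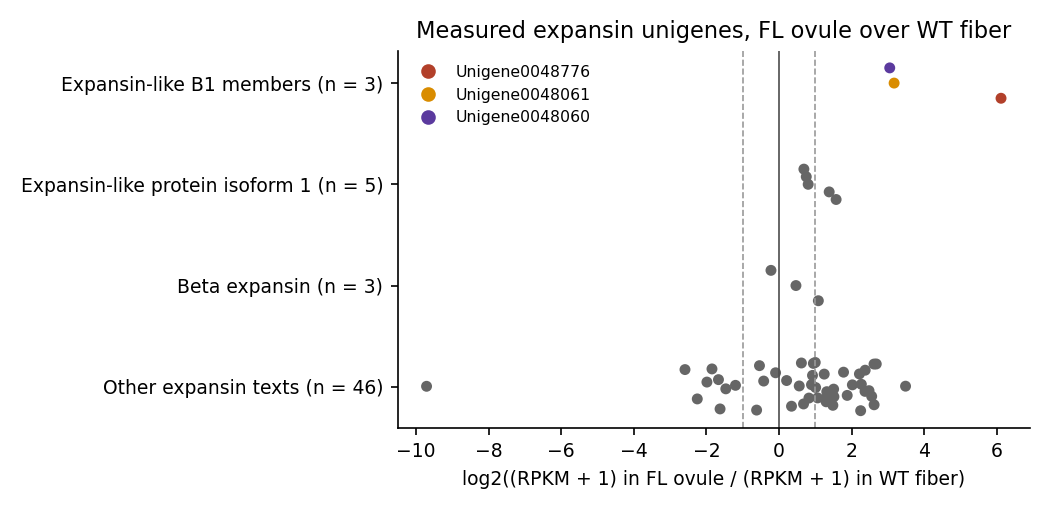
log2 ratio of RPKM + 1, FL ovules over WT fibers, for the expansin unigenes that passed the filter, by annotation class; dashed lines mark 2-fold. The members lie at 3.05, 3.17 and 6.12. The measured Expansin-like protein isoform 1 unigenes also all lie above 0, from 0.69 to 1.57. Beta expansins and the other expansin texts spread on both sides of 0.

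Other wall-modifying enzymes were set beside the members by text. Of all measured unigenes, 15.3% passed 2-fold towards FL ovules and 10.5% towards WT fibers. With both libraries set to the same RPKM sum, 3960 did so towards FL ovules and 11478 towards WT fibers, of 54584. With read totals without the 30 most-read unigenes the counts were 25181 and 5770 of 89573. With scaling by the median ratio they were 11838 and 5782 of 64951. Of 43 measured xyloglucan endotransglucosylases, which cut and rejoin xyloglucan, 14 passed 2-fold towards FL ovules and 14 towards WT fibers, or 7 and 16 with both libraries set to the same RPKM sum. Their summed level ran towards WT fibers, at 498.0 RPKM in FL ovules and 1708 RPKM in WT fibers, and the highest of them in FL ovules had 111.3 RPKM, below Unigene0048776. Pectin methylesterases and their inhibitors, which set how far wall pectin is esterified, had 20 of 52 past 2-fold towards FL ovules and 11 towards WT fibers, or 12 and 14 of 47 with that rescaling and 30 and 8 of 62 with read totals without the 30 most-read unigenes. Their inhibitor-domain unigene Unigene0033153, with 572.5 RPKM in FL ovules and 12.4 RPKM in WT fibers, was more abundant than Unigene0048776 in both libraries and its fold of 46.3 (42.5 to 50.6) was smaller. The largest ratio of this list ran the other way: pectin methylesterase 5 (Unigene0066288) had 1.87 RPKM in FL ovules and 266.3 RPKM in WT fibers, 142-fold higher in WT fibers (123 to 165). The list summed to 1456 RPKM in FL ovules and 1307 RPKM in WT fibers, or 1090 and 1510 after that rescaling, which turns the direction. Pectate lyases, which cleave pectin, were split 3 and 3 of 10 (1 and 3 after that rescaling, 5 and 3 of 12 with those read totals). Their summed level was nonetheless far higher in WT fibers, at 46.0 RPKM in FL ovules and 1501 RPKM in WT fibers. Unigene0080278 had 2.14 RPKM in FL ovules and 544.4 RPKM in WT fibers, and Unigene0080280 had 4.16 RPKM in FL ovules and 794.0 RPKM in WT fibers. Polygalacturonase texts were split 7 and 2 of 18 (6 and 3 of 13 after that rescaling), with summed levels of 342.4 RPKM in FL ovules and 466.0 RPKM in WT fibers. The WT sum rests largely on 2 texts that do not name an active enzyme. A probable non-catalytic subunit (Unigene0070177) had 5.17 RPKM in FL ovules and 244.3 RPKM in WT fibers. A polygalacturonase-inhibiting protein (Unigene0117848) had 2.30 RPKM in FL ovules and 99.96 RPKM in WT fibers. Endoglucanase texts were split 3 and 1 of 7 (2 and 2 of 6 after that rescaling, 4 and 0 of 9 with those read totals, 4 and 0 of 7 with scaling by the median ratio), with summed levels of 196.2 RPKM in FL ovules and 287.4 RPKM in WT fibers. Among those towards FL ovules was Unigene0081990, with 18.2 RPKM in FL ovules and 0.920 RPKM in WT fibers. Its best hit is in Phytophthora ramorum, not in a plant, and whether it is a cotton transcript was not tested. The median log2 ratios were 0.35 for xyloglucan endotransglucosylases (-0.16 with the same RPKM sum), 0.82 for pectin methylesterases and inhibitors, 0.61 for pectate lyases, 0.36 for polygalacturonases and 0.92 for endoglucanases, all below each member's.

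The unigenes nearest to the members over the 2 libraries were taken by the Euclidean distance of log2(RPKM + 1) among 41571 measured unigenes with annotation text. For Unigene0048776 they were a hypothetical protein (Unigene0128022), with 395.9 RPKM in FL ovules and 8.09 RPKM in WT fibers, and a vacuolar-processing enzyme (Unigene0066993), a protease of the vacuole, with 270.1 RPKM in FL ovules and 7.04 RPKM in WT fibers. The third was a seed specific protein (Unigene0089391), with 191.1 RPKM in FL ovules and 6.80 RPKM in WT fibers. Their distances were 0.653, 0.741 and 1.15, against a median distance of 6.84. Of the 112 unigenes at or above the level of Unigene0048776 in FL ovules, itself included, 2 had a log2 ratio at or above its own. The rarer members had much closer neighbours. Their median distances were smaller too, at 2.44 for Unigene0048061 and 2.41 for Unigene0048060. Nearest to Unigene0048061 was a cytochrome P450 of family 78 (Unigene0077969), with 9.60 RPKM in FL ovules and 0.0943 RPKM in WT fibers, at a distance of 0.0885. Nearest to Unigene0048060 was an early nodulin-like protein (Unigene0053220), with 10.2 RPKM in FL ovules and 0.373 RPKM in WT fibers, at a distance of 0.0853. With 2 libraries, likeness of level says nothing about likeness elsewhere.

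Markers of other cell types of the ovule were counted beside the members. Embryo and endosperm, seed coat and dividing cell texts had more unigenes past 2-fold towards FL ovules than towards WT fibers. Most vascular texts passed it in neither direction. Of all measured unigenes, 15.3% passed it towards FL ovules and 10.5% towards WT fibers, and the vascular share of 18.75% towards FL ovules was near the first. With the same RPKM sum in both libraries the counts over all were 3960 and 11478 of 54584. With read totals without the 30 most-read unigenes they were 25181 and 5770 of 89573. Of 24 measured embryo and endosperm texts, 12 passed 2-fold towards FL ovules and 2 towards WT fibers (8 and 3 of 21 with the same RPKM sum in both libraries), with summed levels of 130.7 RPKM in FL ovules and 83.8 RPKM in WT fibers over 36 unigenes, 6 of which had no read in WT fibers. With the same RPKM sum in both libraries these summed levels were 97.8 in FL ovules and 96.8 in WT fibers, nearly equal. A leafy cotyledon1-like unigene (Unigene0036895), an embryo regulator, had 15.5 RPKM in FL ovules and 0.336 RPKM in WT fibers. Other texts of this list went the other way. Its highest single level in WT fibers was 36.1 RPKM, above its highest in FL ovules, 26.1 RPKM. Of 4 measured seed coat texts, 3 passed 2-fold towards FL ovules and 0 towards WT fibers (2 and 0 of 4 with the same RPKM sum). The list's 5 unigenes summed to 338.0 RPKM in FL ovules and 127.5 RPKM in WT fibers. Its pattern for anthocyanidin reductase also takes in a leucoanthocyanidin reductase (Unigene0059650). That unigene had 180.4 RPKM in FL ovules and 41.9 RPKM in WT fibers. Dividing cell texts summed to 2561 RPKM in FL ovules and 690.4 RPKM in WT fibers, with 30 and 4 of 55 past 2-fold (24 and 8 of 53 after that rescaling). Vascular texts summed to 38.7 RPKM in FL ovules and 40.0 RPKM in WT fibers, with 3 and 1 of 16 past 2-fold and 12 in neither direction. Fiber texts summed to 1087 RPKM in FL ovules and 8736 RPKM in WT fibers, with 6 and 22 of 60 past 2-fold (11 and 17 of 68 with read totals without the 30 most-read unigenes). That pattern also takes in texts that only contain the letters E6, and texts of the homeobox protein PROTODERMAL FACTOR 2. With texts naming a fiber protein or protodermal factor 1, a choice made after the texts were read, the counts were 2 and 20 of 49. The median log2 ratios were 0.97 for embryo and endosperm, 1.42 for seed coat, 1.32 for dividing cells, 0.36 for vascular (-0.04 with the same RPKM sum) and -0.66 for fiber texts. The part of tissue make-up in the difference of the Expansin-like B1 unigenes was not tested.

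The direction of the members was the same under each pseudocount and scaling tried. Unigene0048776 was between 54.3-fold and 106-fold higher in FL ovules across the 4 scalings, Unigene0048061 between 37.8-fold and 73.9-fold, and Unigene0048060 between 20.7-fold and 40.5-fold. On the log2 scale the rarer members moved more with the pseudocount than with the scaling, while Unigene0048776 kept a value above 5 under each.

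**Figure D5:**
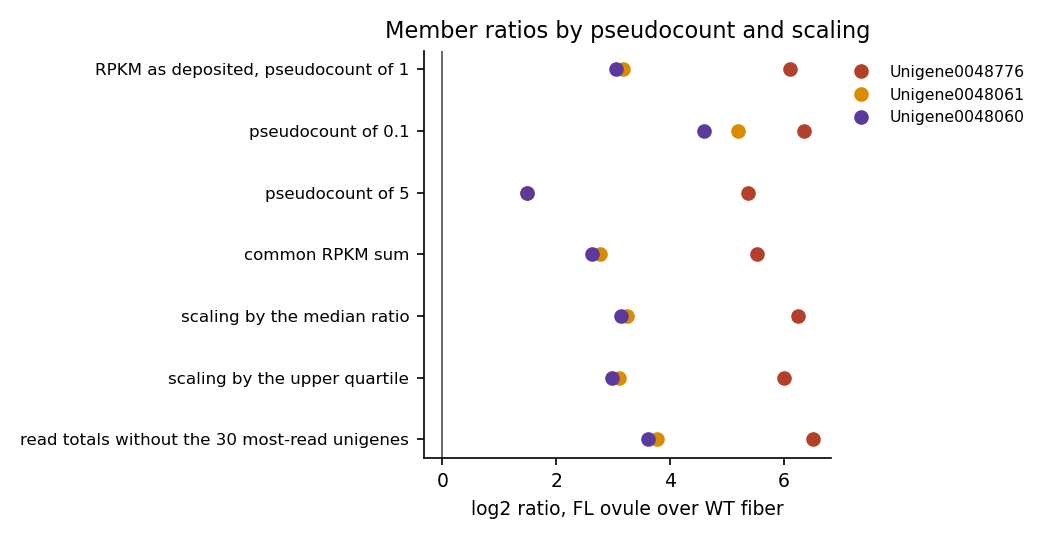
log2 ratio, FL ovules over WT fibers, of the 3 Expansin-like B1 unigenes under each pseudocount and scaling. Values stay above 0 throughout; those of Unigene0048061 and Unigene0048060 drop to 1.49 and 1.48 with a pseudocount of 5.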

How the data were processed

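The 2 libraries of upland cotton were FL ovules and WT fibers. Per the labels' protocols, total RNA was DNase-treated and split into an oligo-dT part and a part depleted of ribosomal RNA, for Illumina HiSeq sequencing, and which part gave the tables is not stated there. The submitters' processing notes name Bowtie and Bowtie2, with no role. For the assembler, annotation database, genome build, counting settings and strand use, the answer is not given in the sources used here. Counts of unique reads were deposited as whole numbers for each unigene and sum to the total in each file's header. The deposited RPKM was made by the authors from these counts; recomputing it matched within a relative error of 5.1e-15. The coverage score deposited by the authors exceeds 100 for 14 unigenes of FL ovules and 9 of WT fibers, so it is not a plain percentage. Unigenes absent from 1 table were given 0 reads there.

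Tables were joined by identifier with Python 3.11.15, pandas 2.3.3 and SciPy 1.17.1. No identifier (0 of 136262) matched the RefSeq gene table. The filter was 1 RPKM in at least 1 library, the pseudocount 1 and the threshold 2-fold. No test between groups was possible, since each has 1 library. Intervals were exact (Poisson for levels, Clopper-Pearson for ratios, conditional for quotients of folds) and cover counting error only; without molecular identifiers reads are no independent molecules, so the intervals are too narrow. Functions were tested on simulated data. The members, lists and naming rules were chosen with earlier results of these data known. Lists are patterns on annotation text. Named were the members, the other expansin-like unigenes, up to 2 unigenes with the largest absolute ratio per list at 5 RPKM or more, and the 3 nearest unigenes per member; family neighbours in rank, the unigenes compared in the closing section, Unigene0050263 and Unigene0057536 were chosen after their values were seen. Not all unigenes meeting the rule are printed.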

Additional observations from a re-analysis of the deposited data

How the results depend on the processing

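No alternative reversed a member. The log2 ratio of Unigene0048776, 6.12, became 6.36 with a pseudocount of 0.1, 5.37 with a pseudocount of 5, 5.53 with a common RPKM sum of 1000000 and 6.52 with read totals without the 30 most-read unigenes of each library (44 unigenes in all). With the same 4 settings the summed RPKM gave 6.29, 5.37, 5.48 and 6.47, against 6.07, and 5.88 with the members treated as 1 gene, an alternative chosen after seeing the data. Unigene0048061, at 3.17, became 5.19 with a pseudocount of 0.1, 1.49 with one of 5 and 3.78 with those read totals. Unigene0048060, at 3.05, became 4.61, 1.48 and 3.62 with these settings, and 2.63 with the common RPKM sum. A larger pseudocount shrinks low levels by construction. Other values for the members moved by less than their counting intervals on this scale. Of all expansin unigenes, 29 passed 2-fold towards FL ovules and 9 towards WT fibers, or 21 and 11 with the common RPKM sum; the first count was 15 with a pseudocount of 5, and at 4-fold the counts were 15 and 3. Over all measured unigenes the median log2 ratio was 0.39 with RPKM as deposited, -0.23 with a common RPKM sum, 0.49 with the median ratio, 0.29 with the upper quartile and 0.68 without the most-read unigenes. No paired analysis was possible because each group has 1 library. The 3 and 9 reads of Unigene0048061 and Unigene0048060 in WT fibers limit their folds.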

Other observations

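Unigenes with the same expansin text did not all lean the same way. Unigene0050263 and Unigene0050264 share the text of Expansin A4, an alpha expansin, and have adjoining identifiers. Unigene0050263 had 51.1 RPKM in FL ovules and 10.2 RPKM in WT fibers, while Unigene0050264 had 9.14 RPKM in FL ovules and 35.4 RPKM in WT fibers. The Expansin-like B1 members shared 1 direction, a feature for which they were chosen and which was not particular to them. The unigenes with the text Expansin A8 had log2 ratios of 3.49, 2.68 and 0.68 towards FL ovules. Those with the text Expansin A1 ranged from 0.21 to 2.48, also towards FL ovules. An expansin-A1-like text (Unigene0057529) lay at 2.62. An expansin-A8-like text below the filter (Unigene0124027) leaned the other way, with 2 reads in FL ovules and 7 reads in WT fibers. Its ratio of 0.244 had an interval of 0.0247 to 1.28, which includes equal levels. Of the 2 Expansin A8 unigenes just above the rarer members in FL ovules, Unigene0057530 had 10.2 RPKM in FL ovules and no read in WT fibers, and Unigene0064496 had 10.1 RPKM in FL ovules and 0.732 RPKM in WT fibers, a 13.8-fold difference.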
